A study of Mus musculus with 35 samples.

Results

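The nicotinic acetylcholine receptor subunits described here are 10 genes of the count table, taken by symbol (*Chrnb4*, *Chrna3*, *Chrna5*, *Chrna2*, *Chrna4*, *Chrna6*, *Chrna7*, *Chrnb1*, *Chrnb2* and *Chrnb3*), among 39109 entries in all. The family was chosen by the rise of *Chrnb4* in striata with *Hdac2* deleted, as seen in both comparisons of *Hdac2* KO with WT mice. The other 9 genes were taken for their family name, with earlier results of these data known. The *Hdac2* differences of *Chrnb4* are therefore given as a description with no test, and tests are given for the other members and for the comparisons that the choice did not use.

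Nicotinic receptors are ion channels of the cell membrane, built from subunits arranged around a pore that acetylcholine opens to cations. In the striatum, cholinergic interneurons release the transmitter, and receptors with the α4 and β2 subunits, some of them with α5, α6 or β3, lie mainly on the terminals of dopamine neurons. The α3 and β4 subunits form the receptor of autonomic ganglia, are abundant in the medial habenula, and are encoded beside the α5 gene in a cluster.

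The 35 libraries analysed here are of striatal RNA from mice aged 21.7 to 23 weeks, sequenced by the authors as stranded mRNA libraries with paired reads, 1 library per mouse, to learn how loss of *Hdac2* acts on transcription in mice with and without an expanded *Htt* repeat. The *Htt*+/+ *Hdac2* WT group held 8 mice (5 males and 3 females), the *Htt* Q111/+ *Hdac2* WT group 7 (4 males and 3 females), the *Htt*+/+ *Hdac2* KO group 9 (5 males and 4 females) and the *Htt* Q111/+ *Hdac2* KO group 11 (8 males and 3 females). One more *Htt*+/+ *Hdac2* WT male, which the authors set aside as an outlier, was not analysed here. *Htt* Q111/+ mice carry 1 knock-in allele, whose CAG repeat had 110 to 140 units in those with *Hdac2* and 110 to 144 in those without. *Hdac2* KO mice carry floxed *Hdac2* on both chromosomes and the D9-Cre transgene, which is driven by a fragment of *Ppp1r1b* and expresses Cre in medium-spiny neurons after 5-6 weeks of age, so that the other cells of the striatum keep *Hdac2*. *Hdac2* WT mice lack Cre and are floxed on both chromosomes, apart from *Htt*+/+ *Hdac2* WT replicates 1 and 2, which have 1 floxed allele. Cre was absent from every WT mouse of the set, and the effects of Cre and of the deletion cannot be told apart. RNA extraction days nearly follow the *Hdac2* genotype. WT libraries were extracted on 24, 25 and 27 May and KO libraries on 26 May, 31 May and 3 June, except *Htt* Q111/+ *Hdac2* KO replicate 1 on 25 May and *Htt*+/+ *Hdac2* KO replicate 9 on 27 May. The total count was 50970712 to 77867348 per library (median 57322618), and levels are given as CPM, counts scaled to the library size.

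Counts cover the whole interval of a gene. *Hdac2* (ENSMUSG00000019777, chr10:36974544-37001611 in GRCm38), the targeted histone deacetylase, had 97.6, 104 and 107 CPM (lowest, median, highest library) in *Htt*+/+ *Hdac2* WT and 95.5, 105 and 111 CPM in *Htt* Q111/+ *Hdac2* WT mice. It had 89.4, 94.4 and 99.2 CPM in *Htt*+/+ *Hdac2* KO and 89.8, 95.5 and 101 CPM in *Htt* Q111/+ *Hdac2* KO mice. The KO libraries were lower as a group, with 12 of 20 below the lowest of 15 WT libraries, and the ranges overlapped. Exons outside the deleted part and cells without Cre enter these values, which makes them a weak check of single labels.

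A comparison tested the genes for which all libraries of 1 or more of its groups reached 6 counts, in a model with surrogate variables. These are covariates estimated from the counts for variation beyond the groups, recorded (such as sex) or not. *Chrna2*, *Chrna6* and *Chrnb3* failed this filter in each of the 4 groups, and the other 7 members passed it in each, so that none entered a test through 1 high group alone. Leaving *Chrnb4* out, 3 of 6 tested members passed an adjusted p of 0.05 with *Hdac2* KO in *Htt*+/+ mice, beside 17.8% of all 17126 genes tested. In *Htt* Q111/+ mice 5 of 6 passed, beside 16.5% of 17169 genes. With the extraction day as covariate in place of surrogate variables these counts were 2 and 1 of 6, with 822 and 331 genes called overall. *Chrna5* and *Chrnb2* rose and *Chrna7* fell in both *Htt* genotypes, and *Chrna3* rose and *Chrna4* fell past the threshold in *Htt* Q111/+ mice. The median log2 difference over all genes tested was -0.0014 and -0.0044 in these comparisons. The 2 comparisons share no library but 1 model of all libraries.

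**Figure D1:**
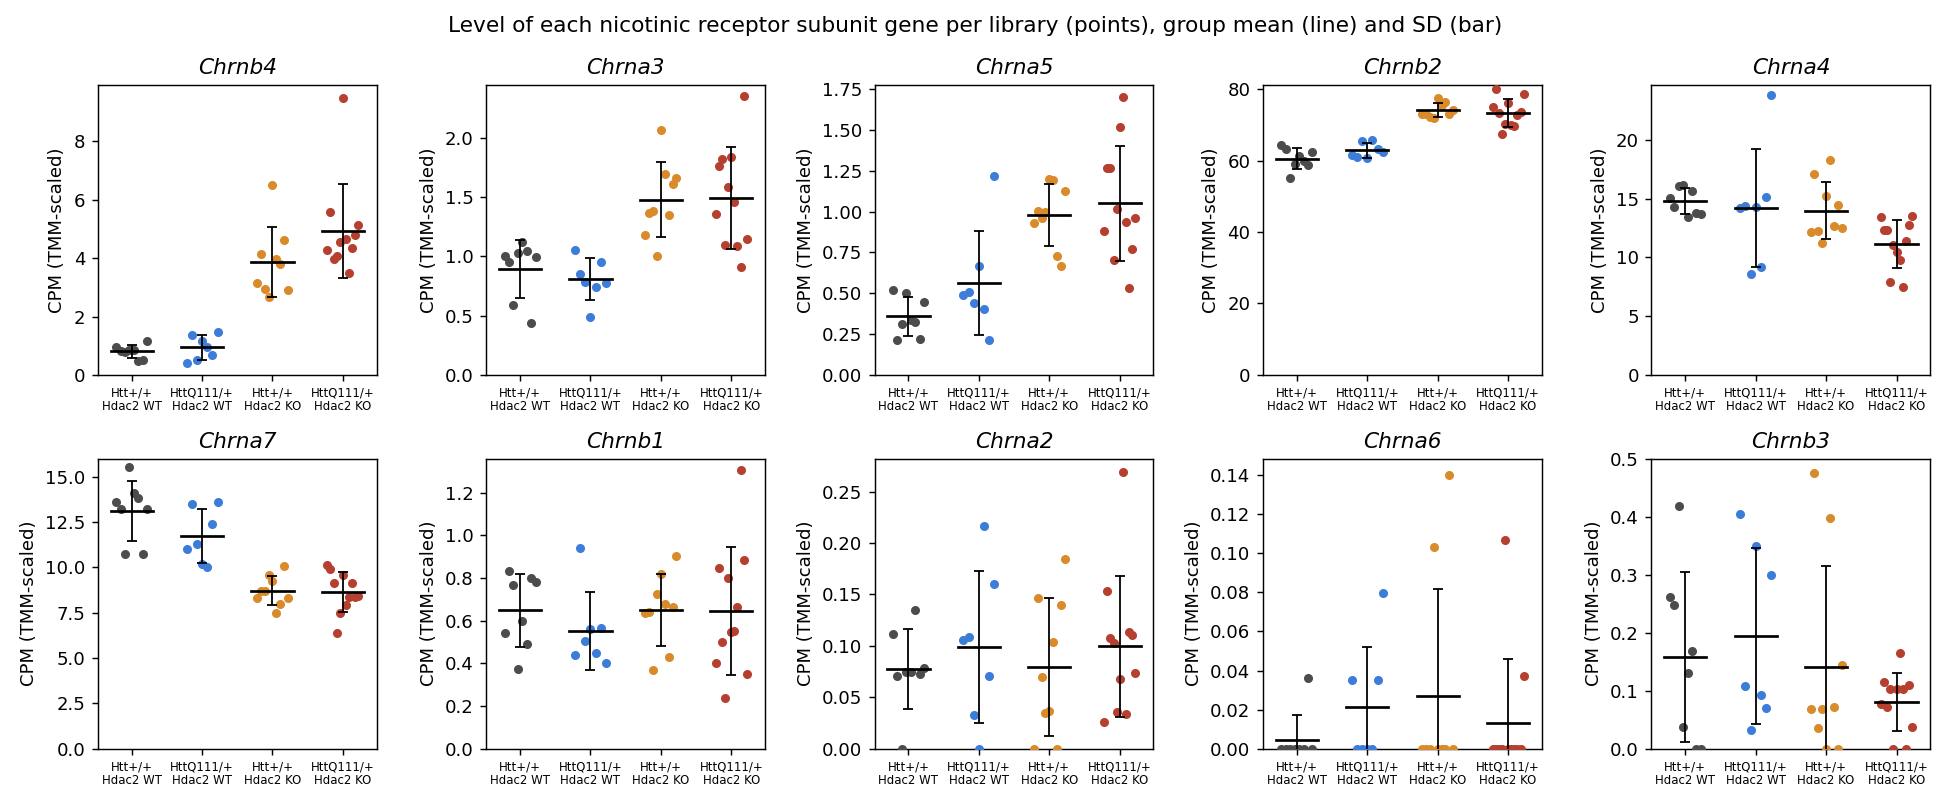
CPM (TMM-scaled library sizes, y axis from 0) of each of the 10 subunit genes in the 4 genotype groups, with 1 point per library, a line at the group mean and bars of 1 SD. The 20 KO libraries of *Chrnb4* lie between 2.67 and 9.48 CPM, above the 15 WT libraries at 0.404 to 1.46 CPM, and those of *Chrna7* lie between 6.38 and 10.2 CPM, mostly below the WT libraries at 10.0 to 15.5 CPM.

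*Chrnb4* (ENSMUSG00000035200, chr9:55028156-55048544, minus strand) encodes the β4 subunit, which forms channels with α3. It had 0.473, 0.837 and 1.17 CPM (lowest, median, highest) in *Htt*+/+ *Hdac2* WT and 0.404, 0.961 and 1.46 CPM in *Htt* Q111/+ *Hdac2* WT mice. With *Hdac2* deleted it had 2.67, 3.79 and 6.51 CPM in *Htt*+/+ and 3.49, 4.54 and 9.48 CPM in *Htt* Q111/+ mice. Every one of the 20 KO libraries lay above the highest of the 15 WT libraries, and *Htt* Q111/+ *Hdac2* KO replicate 6 was the highest of all. The raw counts behind these levels were 23 to 76 per WT library and 142 to 557 per KO library. Group means were 0.807 ± 0.228 CPM (SD, n = 8) and 3.86 ± 1.19 CPM (SD, n = 9) in *Htt*+/+ mice, and 0.940 ± 0.416 CPM (SD, n = 7) and 4.94 ± 1.61 CPM (SD, n = 11) in *Htt* Q111/+ mice. In the fit the log2 difference of KO from WT was 2.39 (SE 0.26, 95% interval 1.87 to 2.92) in *Htt*+/+ and 2.53 (SE 0.23, 95% interval 2.06 to 3.00) in *Htt* Q111/+ mice, or 5.25-fold and 5.78-fold. These values chose the gene and are not tested, and the folds and intervals carry the same choice. In such bulk tissue, a change in the number of cells that transcribe a gene and a change in RNA per cell cannot be told apart.

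On the 2 extraction days that hold both *Hdac2* genotypes, *Chrnb4* stood at 4.27 CPM in the KO library of 25 May against 0.509 to 1.46 CPM in the WT libraries of that day, and at 2.91 CPM in the KO library of 27 May against 0.473 to 0.961 CPM. Both KO libraries lay above all WT libraries of their own day. This order follows from the separation of all KO from all WT libraries and adds nothing to it. With 1 KO library on each day no test within days was made.

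*Chrna3* (ENSMUSG00000032303, chr9:55011343-55026559, minus strand) encodes the α3 subunit, which binds acetylcholine together with β4. It had 0.436, 1.00 and 1.12 CPM in *Htt*+/+ *Hdac2* WT and 0.489, 0.781 and 1.05 CPM in *Htt* Q111/+ *Hdac2* WT mice. In KO mice it had 1.00, 1.38 and 2.07 CPM (*Htt*+/+) and 0.908, 1.46 and 2.35 CPM (*Htt* Q111/+). The ranges overlapped, with 16 of 20 KO libraries above the highest WT library and none below the lowest. In *Htt* Q111/+ mice the log2 difference was 0.70 (SE 0.20, 1.62-fold), past the threshold (edgeR's quasi-likelihood F test, Benjamini-Hochberg adjusted p = 0.0156). In *Htt*+/+ mice it was 0.47 (SE 0.23), which missed it (edgeR, Benjamini-Hochberg adjusted p = 0.187). The ratio of plain group means was 1.65 in *Htt*+/+ mice against a fitted fold of 1.38, and 4 of 14 alternative settings put this difference past the threshold (edgeR or DESeq2, Benjamini-Hochberg adjusted p from 0.00196 to 0.398 over the 14). Of 14 settings 4 took the call in *Htt* Q111/+ mice away (0.125 as the highest Benjamini-Hochberg adjusted p, from edgeR with males only), at log2 differences of 0.63 to 1.11 over the 14. On 25 and 27 May the KO libraries had 1.36 and 1.66 CPM, against 0.436 to 1.12 and 0.592 to 1.05 CPM in the WT libraries.

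*Chrna5* (ENSMUSG00000035594, chr9:54980880-55007779, plus strand) encodes the α5 subunit, which joins receptors of other α and β subunits without forming the usual binding site for acetylcholine. It had 0.213, 0.328 and 0.522 CPM in *Htt*+/+ *Hdac2* WT and 0.211, 0.492 and 1.22 CPM in *Htt* Q111/+ *Hdac2* WT mice. In KO mice it had 0.665, 1.00 and 1.20 CPM (*Htt*+/+) and 0.530, 0.961 and 1.70 CPM (*Htt* Q111/+). The groups were apart in *Htt*+/+ mice, where all 9 KO libraries exceeded the highest WT library, and overlapped in *Htt* Q111/+ mice, where 4 of 11 did so and *Htt* Q111/+ *Hdac2* WT replicate 7 reached 1.22 CPM. That library was also the highest in the sums of cortical and of medial habenula markers. The log2 difference was 1.84 (SE 0.28, 3.59-fold) in *Htt*+/+ mice (edgeR, Benjamini-Hochberg adjusted p = 1.18e-05). The value for *Htt* Q111/+ mice was 1.58 (SE 0.23, 2.99-fold; edgeR, Benjamini-Hochberg adjusted p = 7.61e-06). Ratios of plain group means were smaller, at 2.72 and 1.87, and counts per library were 12 to 114. On 25 May the KO library had 0.879 CPM, within the 0.218 to 1.22 CPM of the WT libraries, and on 27 May it had 1.13 CPM against 0.314 to 0.504 CPM. With the extraction day as covariate instead of surrogate variables, the *Htt* Q111/+ difference was 0.75 with a Benjamini-Hochberg adjusted p of 0.405 from edgeR, the highest of 14 settings, which began at 3.93e-09.

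The 3 genes lie side by side in chr9:54980880-55048544, a stretch of 67665 bases with gaps of 3563 bases between *Chrna5* and *Chrna3* and 1596 bases between *Chrna3* and *Chrnb4*. *Chrna3* and *Chrnb4* are read from the minus strand and *Chrna5* from the plus strand towards them. An antisense gene, *Gm47877* (chr9:55030783-55039429, plus strand), lies within *Chrnb4*. Counts of *Xist* were 102834 to 182622 in the 13 females and those of its antisense partner *Tsix* 20 to 132, so reads of antisense genes were counted apart. The order of the 3 genes in the size of their differences was not tested.

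**Figure D2:**
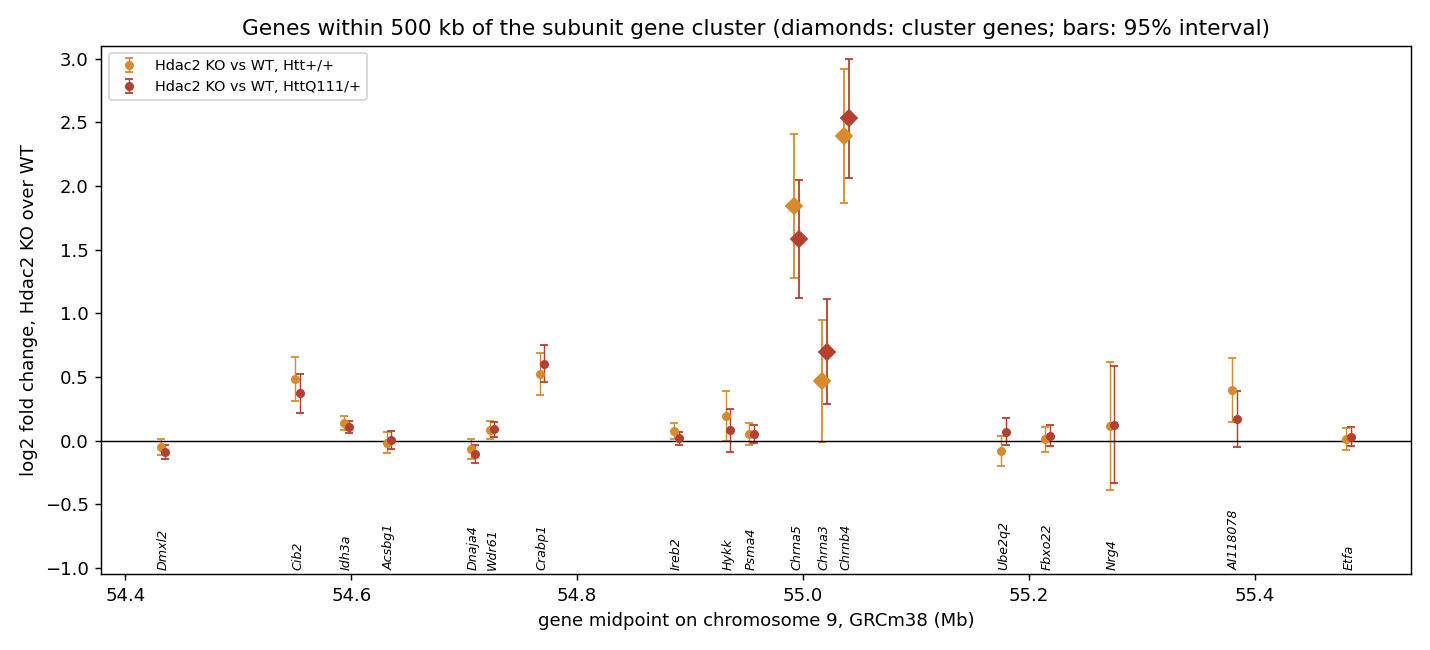
Fitted log2 fold change of *Hdac2* KO over WT (y axis) against the midpoint of each tested gene on chromosome 9 of GRCm38 (x axis, Mb), in *Htt*+/+ and *Htt* Q111/+ mice, with bars of the 95% interval and diamonds for the 3 cluster genes. *Chrnb4* (2.39 and 2.53) and *Chrna5* (1.84 and 1.58) lie above every other gene drawn, and *Crabp1* is at 0.52 and 0.60. The values of *Chrnb4* chose the gene, and its intervals are no test.

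In a window of 500 kb to either side of the cluster, 15 of 20 other genes were tested. With *Hdac2* KO in *Htt*+/+ mice 4 rose and 0 fell (median log2 difference 0.076), and in *Htt* Q111/+ mice 4 rose and 2 fell (median 0.069), beside 17.8% and 16.5% of all genes tested. At an unadjusted p under 0.05 there were 7 and 6, beside 4959 and 4831 of all genes. The closest tested genes passed in neither comparison. *Psma4*, a proteasome subunit gene, had log2 differences of 0.052 and 0.054 in *Htt*+/+ and *Htt* Q111/+ mice, *Hykk*, a hydroxylysine kinase gene, 0.19 and 0.080, *Ireb2*, which encodes an iron regulatory protein, 0.076 and 0.017, and *Ube2q2*, a ubiquitin-conjugating enzyme gene, -0.082 and 0.069. Further off, *Crabp1*, which encodes a retinoic acid binding protein, rose by 0.52 and 0.60 (edgeR, Benjamini-Hochberg adjusted p = 1.77e-05 and 4.30e-07). Its level was 5.27 to 8.08 CPM in WT and 8.85 to 14.2 CPM in KO libraries, with no overlap. *Cib2*, a gene of a calcium binding protein, rose by 0.48 and 0.37 (edgeR, Benjamini-Hochberg adjusted p = 1.09e-04 and 6.23e-04), with overlapping ranges of 4.62 to 9.06 and 6.02 to 10.95 CPM. Smaller rises were called for *Idh3a* in both comparisons, *AI118078* in *Htt*+/+ and *Wdr61* in *Htt* Q111/+ mice, and *Dmxl2* and *Dnaja4* fell in *Htt* Q111/+ mice. Between *Htt* genotypes, in the interaction and between the sexes, edgeR called 0 of the 15 genes, with 2, 2, 1 and 0 at an unadjusted p under 0.05.

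*Chrna4* (ENSMUSG00000027577, chr2:181018380-181043546, minus strand) and *Chrnb2* (ENSMUSG00000027950, chr3:89753448-89764632, minus strand) encode the α4 and β2 subunits of the high-affinity nicotine receptor of the brain. *Chrnb2* had 55.1, 60.6 and 64.3 CPM in *Htt*+/+ *Hdac2* WT and 60.8, 62.4 and 65.8 CPM in *Htt* Q111/+ *Hdac2* WT mice. It had 71.9, 73.1 and 77.6 CPM (*Htt*+/+) and 67.3, 73.3 and 79.9 CPM (*Htt* Q111/+) with *Hdac2* deleted. All 20 KO libraries lay above all 15 WT libraries, so that *Chrnb2* separated the *Hdac2* genotypes as *Chrnb4* did, by a far smaller step. Genes outside the family did so too, such as *Slc12a4* (16.97 to 23.2 CPM in WT and 29.7 to 42.6 CPM in KO libraries). The share of all genes that did so is not given here. The log2 difference of *Chrnb2* was 0.27 (SE 0.034, 1.21-fold) in *Htt*+/+ mice (edgeR, Benjamini-Hochberg adjusted p = 7.39e-07). With the *Htt* Q111/+ genotype it was 0.20 (SE 0.030, 1.15-fold; edgeR, Benjamini-Hochberg adjusted p = 1.63e-05). On 25 and 27 May the KO libraries had 74.97 and 74.1 CPM, against 58.9 to 62.5 and 55.1 to 65.8 CPM in the WT libraries.

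*Chrna4* had 13.5, 14.7 and 16.2 CPM in *Htt*+/+ *Hdac2* WT and 8.57, 14.3 and 23.9 CPM in *Htt* Q111/+ *Hdac2* WT mice, the last value being replicate 7. In KO mice it had 11.2, 12.7 and 18.3 CPM (*Htt*+/+) and 7.47, 11.4 and 13.5 CPM (*Htt* Q111/+). The groups overlapped, with 5 of 9 and 2 of 11 KO libraries below the lowest WT library of their own *Htt* genotype. Above the highest were 2 of 9 in *Htt*+/+ and 0 of 11 in *Htt* Q111/+ mice. The log2 difference was -0.31 (SE 0.11) in *Htt* Q111/+ mice, just past the threshold (edgeR, Benjamini-Hochberg adjusted p = 0.0475), and -0.23 in *Htt*+/+ mice (SE 0.12; edgeR, Benjamini-Hochberg adjusted p = 0.229). The call in *Htt* Q111/+ mice was lost in 8 of 14 settings (Benjamini-Hochberg adjusted p from 0.00900 to 0.688 over the 14), while the log2 difference stayed between -0.40 and -0.24. One of these left out *Htt* Q111/+ *Hdac2* WT replicate 7 and *Htt*+/+ *Hdac2* KO replicates 2 and 6, the libraries highest in cortical markers, and the difference was as large without them (-0.32; edgeR, Benjamini-Hochberg adjusted p = 0.0618). On 25 May the KO library had 13.5 CPM beside 13.5 to 23.9 CPM, and on 27 May 12.5 CPM beside 8.57 to 16.2 CPM.

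*Chrna7* (ENSMUSG00000030525, chr7:63098692-63212526, minus strand) encodes the α7 subunit, which forms channels of 1 kind of subunit that pass calcium readily. It had 10.7, 13.4 and 15.5 CPM in *Htt*+/+ *Hdac2* WT and 10.0, 11.3 and 13.6 CPM in *Htt* Q111/+ *Hdac2* WT mice. In KO mice it had 7.49, 8.67 and 10.1 CPM (*Htt*+/+) and 6.38, 8.41 and 10.2 CPM (*Htt* Q111/+). The KO libraries were the lower ones, with 18 of 20 below the lowest WT library. The log2 difference was -0.53 (SE 0.10) in *Htt*+/+ mice (edgeR, Benjamini-Hochberg adjusted p = 3.50e-04). The value for *Htt* Q111/+ mice was -0.40 (SE 0.090; edgeR, Benjamini-Hochberg adjusted p = 0.00210). On 25 May the KO library had 10.16 CPM, just below the WT libraries at 10.20 to 14.1 CPM, and on 27 May 8.32 CPM against 10.0 to 15.5 CPM. With the extraction day as covariate instead the calls were lost, at log2 differences of -0.46 and -0.32 (edgeR, Benjamini-Hochberg adjusted p = 0.0725 and 0.306). Over 14 settings the Benjamini-Hochberg adjusted p was 1.22e-06 to 0.294 in *Htt*+/+ and 1.03e-04 to 0.306 in *Htt* Q111/+ mice. A further gene model on the same strand, *Gm44741* (chr7:63134164-63136290), lies within the interval, and its reads cannot be told apart from those of *Chrna7*.

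*Chrnb1* (ENSMUSG00000041189, chr11:69784036-69795905, minus strand) encodes the β1 subunit of the muscle receptor. It had 0.373 to 0.833 CPM in *Htt*+/+ and 0.399 to 0.942 CPM in *Htt* Q111/+ *Hdac2* WT mice, and 0.367 to 0.902 and 0.239 to 1.31 CPM in the corresponding KO mice. The 4 groups overlapped throughout. The fitted log2 difference with *Hdac2* KO was -0.68 (SE 0.27; edgeR, Benjamini-Hochberg adjusted p = 0.0803) in *Htt*+/+ mice, although the plain group means had a ratio of 1.00. Without surrogate variables it was 5.95e-04 in place of -0.68, with the Benjamini-Hochberg adjusted p from edgeR at 0.999, the upper end of 14 settings that began at 0.0652. In *Htt* Q111/+ mice it was -0.094 (SE 0.24; edgeR, Benjamini-Hochberg adjusted p = 0.856), and 9 of 14 settings gave a value above 0.

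The remaining members were near the limit of detection. *Chrna2*, an α subunit gene of few brain nuclei, had 177 counts over all 35 libraries, from 0 to 18 per library, with 4 libraries at 0. *Chrna6*, an α subunit gene of dopamine neurons, had 32 counts in all, with 27 libraries at 0 and 8 counts in the highest. *Chrnb3*, whose subunit often joins α6, had 270 counts, from 0 to 26, with the highest count in *Htt*+/+ *Hdac2* KO replicate 2. These 3 genes were left out by the count filter, and no test of them is given.

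**Figure D3:**
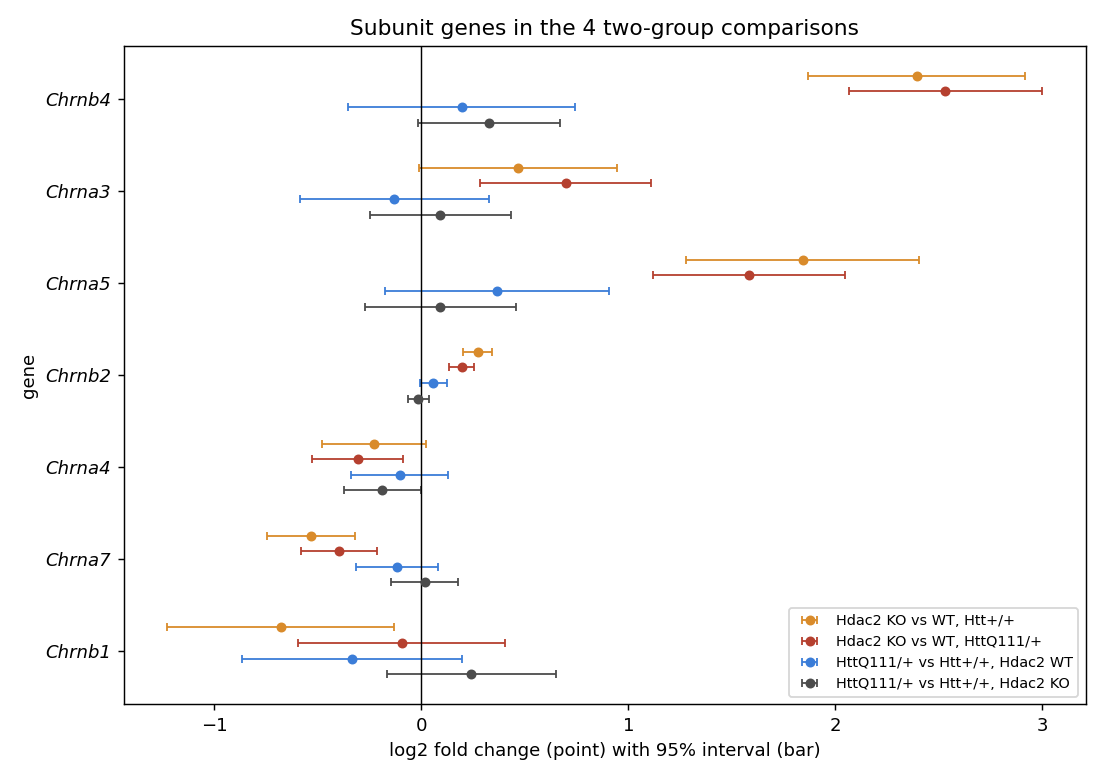
Fitted log2 fold change (x axis) of the 7 tested subunit genes (y axis) in the 4 comparisons of 2 groups, with bars of the 95% interval. *Chrnb4* lies at 2.39 and 2.53 and *Chrna5* at 1.84 and 1.58 in the *Hdac2* comparisons, and *Chrna7* at -0.53 and -0.40. The *Hdac2* values of *Chrnb4* chose the gene, and their intervals are no test.

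The *Htt* genotype was compared within each *Hdac2* genotype. By edgeR, 0 of 7 members passed the adjusted threshold in *Hdac2* WT mice, beside 0.403% of all genes, and 0 of 7 in *Hdac2* KO mice, beside 0.00584%. At an unadjusted p under 0.05 there were 0 and 1 members, and DESeq2 called 0 in both. *Chrnb4* had log2 differences of *Htt* Q111/+ from *Htt*+/+ of 0.20 (SE 0.27) in *Hdac2* WT and 0.33 (SE 0.17) in *Hdac2* KO mice (edgeR, Benjamini-Hochberg adjusted p = 0.861 and 0.693). For *Chrna3* these were -0.13 (SE 0.22) and 0.090 (SE 0.17), and for *Chrna5* 0.36 (SE 0.26) and 0.091 (SE 0.18). *Chrna4* had -0.10 (SE 0.12) and -0.19 (SE 0.092), the latter with an unadjusted p of 0.0498 (edgeR, Benjamini-Hochberg adjusted p = 0.664). *Chrnb2* had 0.058 (SE 0.032) and -0.014 (SE 0.025), *Chrna7* -0.12 (SE 0.096) and 0.017 (SE 0.079), and *Chrnb1* -0.34 (SE 0.26) and 0.24 (SE 0.20). Both *Htt* comparisons share their groups with the *Hdac2* comparisons.

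Whether the *Hdac2* difference depended on the *Htt* genotype was tested by the interaction, the difference in *Htt* Q111/+ minus that in *Htt*+/+ mice. Leaving *Chrnb4* out, 0 of 6 members passed by edgeR, beside 0.00577% of 17346 genes, with 0 at an unadjusted p under 0.05 and 0 by DESeq2. For *Chrnb4* the interaction was 0.14 (SE 0.31, 95% interval -0.49 to 0.78), given without a test since it is drawn from the 2 differences that chose the gene. For *Chrna3* it was 0.22 (SE 0.27) and for *Chrna5* -0.27 (SE 0.32), so that *Chrna3*, called in 1 *Htt* genotype alone, was not shown to differ between them.

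Sex was mixed in every group. Of 7 members 0 passed between females and males by edgeR, beside 0.0807% of all genes, with 2 at an unadjusted p under 0.05 and 0 by DESeq2. Those 2 were *Chrnb2*, at a log2 difference of female from male of 0.055 (SE 0.022), and *Chrna4*, at 0.21 (SE 0.095; edgeR, Benjamini-Hochberg adjusted p = 0.512 and 0.548). *Chrnb4* had 0.16 (SE 0.16). Over 8 settings the *Chrna4* difference was 0.073 to 0.22. The 5 cortical projection neuron markers had a median difference of 0.999 between the sexes, with 0 called by edgeR. *Htt* Q111/+ *Hdac2* WT replicate 7 and *Htt*+/+ *Hdac2* KO replicates 2 and 6, the libraries highest in cortical markers, are all from females. The 8 settings include a fit without these libraries. The part of cortical tissue in the *Chrna4* difference was not tested beyond that.

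Levels of the members are given as CPM per kb of exon, although the counts also hold intron reads, and differences between members were not tested. In *Htt*+/+ *Hdac2* WT mice *Chrnb2* led with 11.2 ± 0.543 CPM per kb (SD, n = 8), and *Chrna4* and *Chrna7* had 2.94 ± 0.219 and 2.94 ± 0.369 CPM per kb. *Chrnb1*, *Chrnb4* and *Chrna3* had 0.260 ± 0.0684, 0.231 ± 0.0655 and 0.223 ± 0.0607 CPM per kb, and *Chrna5* had 0.115 ± 0.0384 CPM per kb. In *Htt* Q111/+ *Hdac2* WT mice the same genes had 11.6 ± 0.382 (*Chrnb2*), 2.84 ± 1.00 (*Chrna4*), 2.63 ± 0.332 (*Chrna7*), 0.221 ± 0.0735 (*Chrnb1*), 0.270 ± 0.119 (*Chrnb4*), 0.200 ± 0.0442 (*Chrna3*) and 0.180 ± 0.102 CPM per kb (*Chrna5*; SD, n = 7). With *Hdac2* deleted *Chrnb4* had 1.11 ± 0.342 CPM per kb in *Htt*+/+ (SD, n = 9) and 1.42 ± 0.462 CPM per kb in *Htt* Q111/+ mice (SD, n = 11). *Chrna3* had 0.367 ± 0.0784 and 0.370 ± 0.107 CPM per kb, *Chrna5* 0.313 ± 0.0600 and 0.336 ± 0.113 CPM per kb and *Chrnb1* 0.261 ± 0.0676 and 0.258 ± 0.121 CPM per kb. *Chrnb2* was the highest in the KO groups too (13.7 ± 0.363 and 13.5 ± 0.721 CPM per kb), and *Chrna4* had 2.79 ± 0.488 and 2.22 ± 0.413 CPM per kb and *Chrna7* 1.95 ± 0.181 and 1.93 ± 0.249 CPM per kb. *Chrna2*, *Chrnb3* and *Chrna6* averaged 0.0253, 0.0214 and 0.00565 CPM per kb over all 35 libraries.

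Over the 35 libraries, the pattern of *Chrnb4* was compared with that of 14790 genes of at least 1 CPM on average, as Pearson's r of log2 CPM. The 5 genes most like it were *Slc12a4*, a potassium-chloride cotransporter gene (0.933), *Vwa5b2* (0.918), *Ltbp2*, a gene of a matrix protein (0.913), *Wbscr27* (0.908) and *Capn12*, a calpain protease gene (0.900). *Slc12a4* had 16.97 to 23.2 CPM in WT and 29.7 to 42.6 CPM in KO libraries, and *Ltbp2* 0.359 to 0.662 and 1.23 to 3.29 CPM. Among the members *Chrnb2* had an r of 0.881, *Chrna3* 0.727, *Chrna4* -0.235 and *Chrna7* -0.720, while the others were below 1 CPM on average. These values rest on the separation of the *Hdac2* genotypes. After the group means were subtracted they were 0.298 for *Chrnb2*, 0.225 for *Chrna3*, 0.378 for *Chrna4* and 0.309 for *Chrna7*. The 5 genes most like *Chrnb4* were then *Iffo1* (0.676), *Gm17322* (0.668), *Bnip3* (0.652), *Kcnn1* (0.644) and *Arl8a* (0.632). Ranked by Spearman's rho, 2 of the former 5 and 1 of the latter 5 stayed among the top 5. The values of 2 genes in a library share its depth and its extraction day.

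RefSeq promoter sequences (GRCm38.p6) were held for 7 of the 10 members and were read for the 250 bases before the start, since the cluster genes lie side by side. *Chrna2*, *Chrna6* and *Chrnb3* had no entry. The letters GGGCGG or CCGCCC (a GC box, bound by Sp factors, on either strand) occur in 32.7% of 32851 promoters of this length, and CAGCTG, an E-box that is its own reverse complement, in 13%. The window of *Chrna3* (chr9:55026563-55026812, minus strand) held 1 GC box, shown in capitals, and had 63.2% G and C, where the median promoter had 52.4%. The first start of *Chrna5* (chr9:54980630-54980879, plus strand) held neither and had 40% G and C, and its other start (chr9:54981238-54981487) held 4 GC boxes.
Chrna3 promoter: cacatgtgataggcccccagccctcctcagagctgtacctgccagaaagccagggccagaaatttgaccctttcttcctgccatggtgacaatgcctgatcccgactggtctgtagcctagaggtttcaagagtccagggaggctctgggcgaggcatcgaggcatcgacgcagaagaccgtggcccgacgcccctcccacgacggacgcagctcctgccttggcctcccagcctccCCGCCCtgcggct
Chrna5 promoter: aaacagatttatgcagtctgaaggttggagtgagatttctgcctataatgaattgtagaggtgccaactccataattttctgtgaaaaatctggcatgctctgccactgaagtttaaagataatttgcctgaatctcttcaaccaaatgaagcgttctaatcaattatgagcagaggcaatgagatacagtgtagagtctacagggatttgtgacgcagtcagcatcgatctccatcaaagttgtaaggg

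Of the window of *Chrnb4*, 235 of 250 bases lie in an annotated exon. It held 0 GC boxes and 1 CAGCTG, which starts 14 bases before the start (chr9:55048545-55048574, minus strand, the E-box in capitals). *Chrna4* held 3 GC boxes, *Chrna7* 1, *Chrnb1* 4 and *Chrnb2* 0. A match in letters is no evidence of binding, and no binding data were analysed here.
Chrnb4 start: ggcacagagagactgcCAGCTGggacagac

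Of the 9 genes of factors described at the promoters of the cluster, 8 passed the filter. *Phox2a*, which encodes a homeodomain factor of autonomic neurons, passed through the KO groups alone, which had to differ, so that its levels are given with no test. It had 0 to 12 counts per WT and 8 to 28 per KO library. Of the other 7 genes, 0 rose and 0 fell with *Hdac2* KO in *Htt*+/+ mice (median log2 difference 0.010, 1 at an unadjusted p under 0.05) and 1 rose and 0 fell in *Htt* Q111/+ mice (median 0.012), beside 17.8% and 16.5% of all genes tested. *Rest*, a repressor of neuronal genes, rose by 0.34 (SE 0.074) in *Htt* Q111/+ mice (edgeR, Benjamini-Hochberg adjusted p = 0.00168). *Hnrnpk*, *Sp3* and *Sox10* were the most abundant of the list and were not called. In the other comparisons edgeR called 0 of the list, with 1 gene at an unadjusted p under 0.05 in each *Htt* comparison and in the interaction and 0 between the sexes.

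Receptor chaperones and Ly6 proteins govern how many nicotinic receptors reach the membrane and how they gate. Of 13 such genes 11 were tested, and with *Hdac2* KO 4 rose and 0 fell in both *Htt*+/+ (median log2 difference 0.078) and *Htt* Q111/+ mice (median 0.17), beside 17.8% and 16.5% of all genes tested. *Lypd1*, a Ly6 protein gene, had 66.1 to 99.2 CPM in WT and 117 to 213 CPM in KO libraries, with no overlap, and rose by 0.77 (SE 0.084) and 0.66 (SE 0.075; edgeR, Benjamini-Hochberg adjusted p = 5.87e-08 and 1.53e-07). *Ly6h*, whose product restrains α7 receptors, had 44.0 to 72.1 and 70.8 to 106 CPM and rose by 0.61 (SE 0.065) and 0.40 (SE 0.056; edgeR, Benjamini-Hochberg adjusted p = 4.22e-08 and 6.33e-06). *Tmem35* (now *Tmem35a*), which encodes a chaperone of α7 receptors, had 45.9 to 59.2 and 55.5 to 74.9 CPM and rose by 0.28 (SE 0.047) and 0.22 (SE 0.041; edgeR, Benjamini-Hochberg adjusted p = 6.58e-05 and 3.16e-04). *Ly6e* rose by 0.29 (SE 0.053) and 0.23 (SE 0.046; edgeR, Benjamini-Hochberg adjusted p = 1.47e-04 and 6.78e-04), with overlapping ranges of 39.7 to 84.7 and 49.9 to 69.1 CPM. *Lynx1*, the most abundant, and *Ric3*, the third in abundance after *Lypd1*, were not called. Between *Htt* genotypes, in the interaction and between the sexes edgeR called 0 of the 11, with 4 (*Hdac2* WT), 2 (*Hdac2* KO), 1 and 4 at an unadjusted p under 0.05.

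The other 6 nicotinic subunit genes (*Chrna1*, *Chrna9*, *Chrna10*, *Chrnd*, *Chrne* and *Chrng*) were tested in no comparison, having 221, 7, 127, 1, 178 and 3 counts over all libraries. Of the genes for making, moving and breaking down acetylcholine, *Slc18a3* was not analysed here and 6 of 7 were tested. EdgeR called 0 with *Hdac2* KO, with 0 at an unadjusted p under 0.05, and the median log2 difference was -0.074 in *Htt*+/+ and -0.0038 in *Htt* Q111/+ mice. In the *Htt* comparisons edgeR also called 0, with 1 (*Hdac2* WT) and 2 (*Hdac2* KO) at an unadjusted p under 0.05. *Slc5a7* (choline uptake), *Ache* (acetylcholinesterase) and *Chat* (acetylcholine synthesis) were the most abundant. Of the 5 muscarinic receptor genes, *Chrm5* passed the filter through the *Hdac2* WT groups alone, with 10 to 78 counts per WT and 4 to 44 per KO library, and no test of it is given. Of the other 4, *Chrm4* rose by 0.16 (SE 0.057) and *Chrm1* had -0.14 (SE 0.050) in *Htt*+/+ mice (edgeR, Benjamini-Hochberg adjusted p = 0.0445 and 0.0453; median of the 4 -0.095). Among *Htt* Q111/+ mice *Chrm1* had -0.16 (SE 0.045; edgeR, Benjamini-Hochberg adjusted p = 0.0137; median -0.039). The calls were thus 2 and 1 of 4, beside 17.8% and 16.5% of all genes tested.

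Markers of the cells in the tissue were read beside these results. Of 9 medium-spiny neuron markers, 2 rose and 2 fell with *Hdac2* KO in *Htt*+/+ mice (median log2 difference -0.071), and 2 rose and 0 fell in *Htt* Q111/+ mice (median 0.024), beside 17.8% and 16.5% of all genes tested. *Ppp1r1b* rose by 0.24 and 0.31 (edgeR, Benjamini-Hochberg adjusted p = 0.00242 and 3.48e-05) and *Tac1* by 0.27 and 0.29 (edgeR, Benjamini-Hochberg adjusted p = 1.71e-04 and 1.52e-05), and the Cre transgene itself holds a *Ppp1r1b* fragment. *Drd2* had -0.16 in *Htt*+/+ mice (edgeR, Benjamini-Hochberg adjusted p = 0.0387). Summed over the list, *Htt*+/+ libraries had 7376 to 8464 CPM in *Hdac2* WT and 7164 to 8452 CPM in *Hdac2* KO mice, and *Htt* Q111/+ libraries 5440 to 7470 and 6079 to 7752 CPM, with *Penk* the most abundant. Between *Htt* genotypes in *Hdac2* WT mice 0 rose and 4 fell (*Ppp1r1b*, *Drd1a*, *Penk* and *Rgs9*; median -0.23), beside 0.403% of all genes tested, and in *Hdac2* KO mice edgeR called 0, with 7 at an unadjusted p under 0.05 (median -0.12). No member passed in these *Htt* comparisons.

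Of 7 cholinergic interneuron markers 6 were tested, and edgeR called 0 in each comparison, with 0 at an unadjusted p under 0.05 in both *Hdac2* comparisons and medians of -0.068 and 0.013. Between *Htt* genotypes, in the interaction and between the sexes there were 0 (*Hdac2* WT), 2 (*Hdac2* KO), 0 and 1 at an unadjusted p under 0.05. Their sum was 126 to 185 CPM in *Hdac2* WT and 134 to 192 CPM in *Hdac2* KO libraries. Of 7 markers of other interneurons *Nos1* fell by 0.20 in *Htt*+/+ mice (edgeR, Benjamini-Hochberg adjusted p = 0.0287; median of the list -0.10), and 0 were called in *Htt* Q111/+ mice, with 2 at an unadjusted p under 0.05 (median -0.11), beside 17.8% and 16.5% of all genes tested.

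Since *Chrnb4*, *Chrna3* and *Chrna5* are abundant in the medial habenula, 7 markers of that nucleus were read, of which 5 were tested. In each *Hdac2* comparison 1 of the 5 rose and 0 fell (medians 0.16 and -0.092), near the 17.8% and 16.5% of all genes tested, and it was *Lrrc55*, which encodes a channel subunit, the most abundant of the list, at 0.80 (SE 0.079) and 0.50 (SE 0.069; edgeR, Benjamini-Hochberg adjusted p = 1.08e-08 and 4.81e-06). *Lrrc55* had 8.55 to 17.01 CPM in WT and 15.3 to 19.8 CPM in KO libraries. The summed list had 18.6 to 23.4 CPM in *Htt*+/+ *Hdac2* WT, 21.2 to 43.3 CPM in *Htt* Q111/+ *Hdac2* WT, 26.4 to 32.5 CPM in *Htt*+/+ *Hdac2* KO and 25.2 to 31.3 CPM in *Htt* Q111/+ *Hdac2* KO libraries. The ranges of the sum did not overlap in *Htt*+/+ mice. *Lrrc55* and *Kcnip1* made up most of this sum, with the other genes at mean levels of 1.03 CPM or lower. Mean levels were 0.351 (WT) and 0.327 CPM (KO) for *Tac2*, 0.756 and 0.767 CPM for *Gpr151*, 0.0420 and 0.0350 CPM for *Pou4f1*, 0.0133 and 0.0233 CPM for *Nhlh2* and 1.03 and 0.577 CPM for *Slc17a6*. *Pou4f1* was at 0 in 15 of 35 libraries and *Nhlh2* in 20. *Kcnip1* had 7.74 to 16.9 CPM in WT and 7.56 to 11.05 CPM in KO libraries. The part of such cells in the levels of the cluster genes was not tested.

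Dopamine neuron markers, of which 3 of 5 were tested, gave 0 calls by edgeR in each comparison with 0 at an unadjusted p under 0.05 (medians -0.032 and 0.035 with *Hdac2* KO). Their sum was 13.9 to 19.7 CPM, and *Pitx3* was at 0 in 25 of 35 libraries. The 5 cortical projection neuron markers gave 0 calls by edgeR, with 1 and 0 at an unadjusted p under 0.05 in the *Hdac2* comparisons (medians -0.58 and 0.031). Their sum, led by *Slc17a7*, differed most between libraries, at 12.1 to 63.1 CPM in *Htt*+/+ *Hdac2* WT, 7.88 to 417 CPM in *Htt* Q111/+ *Hdac2* WT, 5.81 to 165 CPM in *Htt*+/+ *Hdac2* KO and 8.79 to 45.4 CPM in *Htt* Q111/+ *Hdac2* KO mice. *Htt* Q111/+ *Hdac2* WT replicate 7 (417 CPM) and *Htt*+/+ *Hdac2* KO replicates 6 (165 CPM) and 2 (130 CPM) stood apart. They were also the highest of their groups in *Chrna4*, at 23.9, 18.3 and 17.1 CPM. *Htt* Q111/+ *Hdac2* WT replicate 7 was the highest of its group in *Chrna5* (1.22 CPM), *Chrnb4* (1.46 CPM) and *Chrna7* (13.6 CPM) too. It was the lowest in *Chrnb1* (0.399 CPM). The part of such tissue in these values was not tested. Choroid plexus markers summed to 17.2 to 211 CPM, highest in *Htt*+/+ *Hdac2* WT replicate 1 (211 CPM) and *Htt* Q111/+ *Hdac2* KO replicate 1 (145 CPM). *Clic6* of that list rose by 0.39 and 0.37 with *Hdac2* KO (edgeR, Benjamini-Hochberg adjusted p = 0.00487 and 0.00221), and *Ttr*, its most abundant gene, had -3.12 (SE 1.05) in *Htt*+/+ mice (edgeR, Benjamini-Hochberg adjusted p = 0.0359), at widely spread levels of 0.234, 18.3 and 171 CPM (lowest, median, highest) in WT and 0.758, 2.82 and 14.7 CPM in KO mice. The calls were thus 2 of 3 choroid plexus genes in *Htt*+/+ and 1 of 3 in *Htt* Q111/+ mice, beside 17.8% and 16.5% of all genes tested. *Folr1* of that list passed the filter through the *Htt* Q111/+ *Hdac2* WT group alone, and no test of it is given. Markers of oligodendrocytes (4 genes), astrocytes (4), microglia (4) and endothelial cells (3) gave 0 calls by edgeR in both *Hdac2* comparisons. At an unadjusted p under 0.05 there were 0 oligodendrocyte, 2 astrocyte, 0 microglia and 1 endothelial markers in *Htt*+/+ and 0 in *Htt* Q111/+ mice. Between *Htt* genotypes *Aqp4*, an astrocyte water channel gene, had -0.26 in *Hdac2* WT mice (edgeR, Benjamini-Hochberg adjusted p = 0.0122), and edgeR called 0 of the other markers of these 4 cell types. All genes tested were called at 0.403% in *Hdac2* WT and 0.00584% in *Hdac2* KO mice. At an unadjusted p under 0.05 there was also 1 oligodendrocyte marker in *Hdac2* KO mice.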

How the data were processed

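The data are striatal RNA-seq gene counts of 35 mice in 4 genotype groups, with groups, sexes, extraction dates and ID series (the letter that opens a mouse ID) taken from the sample labels and Cre and floxed alleles from the study's table of mice. The counts were deposited by the authors without normalization, after alignment of paired reads to GRCm38 (Ensembl annotation) with GSNAP and counting of unique alignments over whole gene intervals, introns included, with bedtools multibamcov. Use of strand in the counting is not stated and was read from *Xist* and *Tsix*. A count of 2 occurred 38841 times over genes and libraries, a count of 1 17333 times and a count of 3 8913 times, a pattern that arises when read mates are counted separately.

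From the 39109 entries, 92 ERCC spike-ins, 6152 genes spanning at most 250 nt and 2 mitochondrial rRNA genes were left out, which left 32863 genes. R 4.3.3 with edgeR 4.0.16 (quasi-likelihood F test in its older form, TMM scaling) and sva 3.50.0 fitted all libraries in a model of the 4 groups with 9 surrogate variables for each comparison of genotypes and the interaction, and with sex and no surrogate variable for the comparison of the sexes. Genes for which all libraries of 1 or more of the groups reached 6 counts were tested, and Benjamini-Hochberg adjustment ran over all of them, with a threshold of 0.05. DESeq2 1.42.0, limma 3.58.1, pandas 2.3.3 and matplotlib 3.10.9 served the alternatives, tables and figures. The procedure was tested on simulated data. CPM used TMM-scaled library sizes and log2 CPM a prior count of 2.

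The members and the gene lists were chosen with earlier results of these data known. All 10 members are named, and from each list at least the genes past the threshold in any comparison or among its 3 most abundant, apart from 1 gene that is not reported here. The genes nearest to the cluster were named after their values were seen. Likeness to *Chrnb4* names the top 5 genes by Pearson's r. Promoter sequences are those of RefSeq for GRCm38.p6. The alternatives covered covariates, a replicate block, normalization, test, count filters and the libraries fitted, and those without the libraries highest in cortical or choroid plexus markers were chosen after seeing the data. The mouse is the replicate.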

Additional observations from a re-analysis of the deposited data

Results flagged for a closer look

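In groups of 4 to 10 libraries, the gap from the highest or lowest library to the next was set against the range of the group for each of the 10 members. The *Htt* Q111/+ *Hdac2* KO group, of 11 libraries, was thus not examined. In it *Chrnb4* stood at 9.48 CPM in replicate 6, with 5.58 CPM in the next library. Of 21 groups of a gene and a genotype examined for the 7 tested members, 2 had a library far from the others, where chance gives about 1 in 20. *Chrna4* stood at 23.9 CPM in *Htt* Q111/+ *Hdac2* WT replicate 7, the library that was also highest in the sums of cortical markers (417 CPM) and of medial habenula markers (43.3 CPM). Over the libraries, *Lrrc55* and *Kcnip1* make up most of the habenula sum. The part of other tissue in the *Chrna4* value was not tested. *Chrnb1* stood at 0.942 CPM in *Htt* Q111/+ *Hdac2* WT replicate 2. *Chrna6*, left out of that count, stood at 0.0363 CPM in *Htt*+/+ *Hdac2* WT replicate 8, which is 2 counts in a group whose other libraries had 0, where any count stands apart.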

How the results depend on the processing

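Over 14 settings *Chrnb4* had log2 differences with *Hdac2* KO of 1.95 to 2.67 in *Htt*+/+ and 2.06 to 2.83 in *Htt* Q111/+ mice. *Chrna5* and *Chrnb2* in *Htt*+/+ mice and *Chrnb2* in *Htt* Q111/+ mice were called in 14 of 14. In *Htt* Q111/+ mice the members called went from 5 to 1 with the extraction day as covariate instead of surrogate variables (331 of all genes called in place of 2841), to 3 when genes with at least 1 count in any library were tested (2356 of 26299 genes called) and to 3 without ID series A (2086 genes; 8 libraries, replicates 1 and 2 of both WT groups, *Htt*+/+ *Hdac2* KO replicate 1 and *Htt* Q111/+ *Hdac2* KO replicates 1, 2 and 3). In *Htt*+/+ mice the count was 2 to 4 over the settings, with 822 of all genes called by extraction date in place of 3056. Between *Htt* genotypes in *Hdac2* WT mice it went from 0 to 1 without ID series A, where 905 of all genes were called in place of 69 (*Chrnb2*, log2 difference 0.10, edgeR, Benjamini-Hochberg adjusted p = 0.0477, over 14 settings 0.0477 to 0.814). Every *Htt* Q111/+ mouse of ID series V had a longer CAG repeat than those of series A and Z. Leaving out series A thus also raised the share of long repeats. The causes were not tested.

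Replicate numbers were not taken as pairs. The deviations of same-numbered libraries correlated at -0.145 to 0.282 over 8 pairs in *Htt*+/+ and -0.0399 to 0.275 over 7 pairs in *Htt* Q111/+ mice, with 1 best match to its own number in each. Between *Htt* genotypes they correlated at -0.188 to 0.177 over 6 pairs in *Hdac2* WT mice, with 2 best matches, and at -0.206 to 0.139 over 9 pairs in *Hdac2* KO mice, with 0. With a replicate block 2 members were called in *Htt*+/+ and 4 in *Htt* Q111/+ mice (843 and 2143 of all genes, in place of 3056 and 2841), the former without *Chrna7* (-0.35) and the latter without *Chrna4* (-0.26). The block also turned the *Chrna4* interaction to 0.052 and the *Chrna7* sex difference to -0.011. It changed no other call.

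The other reversals were of differences called in no setting. With *Hdac2* KO in *Htt*+/+ mice *Chrnb1* had 5.95e-04 without surrogate variables, 0.0081 with sex and 0.077 with extraction date in their place. In *Htt* Q111/+ mice it had, in the same order, 0.21, 0.19 and 0.30, with ID series 0.20, with at least 20 counts per library 0.030, with the libraries of the 2 groups alone 0.20, with males alone 0.24, without ID series A 0.11 and without the 2 libraries highest in choroid plexus markers 0.096. For the *Htt* difference in *Hdac2* KO mice *Chrnb1* had -0.018, -0.035 and -0.065 without surrogate variables, with sex and with extraction date. *Chrna7* had there -0.013, -0.0067 and -0.038, with ID series -0.017, with males alone -0.089, without ID series A -0.092 and without the 3 libraries highest in cortical markers -0.0074. *Chrna5* had -0.0078 with males alone, -0.14 without ID series A and -0.039 without those 3 libraries, *Chrna3* -0.14 without ID series A and *Chrnb2* 0.010 with the 2 groups alone. In *Hdac2* WT mice males alone gave -0.024 for *Chrnb4* and 0.028 for *Chrna3*. Without ID series A the *Chrna4* interaction was 0.0087 and the *Chrna7* sex difference -0.035, and without the choroid-high libraries the *Chrnb1* sex difference was 0.0013. *Chrna2*, *Chrna6* and *Chrnb3* were left untested by the filter of 6 counts per library.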
